A study of Mus musculus with 12 samples.

Results

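Hepatokines are proteins that the liver releases into the blood and that act on metabolism elsewhere in the body. Here 9 genes of this kind, chosen by name, were followed: the angiopoietin-like genes Angptl4, Angptl6 and Angptl8, the fetuin genes Ahsg and Fetub, Fgf21, Gdf15, Inhbe and Lect2. All 9 were found among the 46078 genes of the count table, and all 9 passed the filter on low counts. The RNA-seq libraries came from the livers of male C57BL/6 mice aged 21 weeks with diet-induced obesity on a high fat diet, 4 mice in each of 3 groups. VSG mice had undergone vertical sleeve gastrectomy, in which most of the stomach is removed. Sham-WM mice had a sham operation and were then fed a restricted amount so that their weight matched that of VSG mice. Sham-Ad lib mice had a sham operation and returned to unrestricted food. All groups shared the diet, an operation under anaesthesia, the drugs given around it and a period without food before the liver was taken, and the study used these groups to separate effects of VSG from those of weight loss alone.

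Angiopoietin-like proteins of this family control lipoprotein lipase, the enzyme that frees fatty acids from circulating triglyceride: ANGPTL4 inhibits it mainly in the fasted state, whereas ANGPTL8, a gene of feeding and insulin, inhibits it in the fed state. FGF21 and GDF15 are hormones of nutritional and cellular stress, the first acting through an FGF receptor with the co-receptor beta-klotho and the second through GFRAL in the brainstem. Fetuin-A (Ahsg) and fetuin-B (Fetub) are abundant plasma proteins of the cystatin superfamily, inhibin beta E (Inhbe) belongs to the activin family, and LECT2 is a secreted protein of hepatocytes that binds receptors such as MET and TIE1.

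The libraries held 15122520 to 19384076 counts on genes. The samples' titles and another field of their labels disagreed on which library belonged to which mouse. Libraries were grouped by the animal number in the title and in the library's name, and are named by that number (3F, for example). The other field would place 8 of the 12 libraries in another group, and with that grouping none of the 9 and no other gene passed edgeR's test in any comparison. Library index numbers run in 1 unbroken block for each group, and a batch along these numbers and the treatment cannot be told apart. Nothing in the labels pairs mice between groups.

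Values are counts scaled for library size (CPM, with TMM factors), and differences are log2 fold changes with their standard error (SE) from edgeR's quasi-likelihood test, called at a Benjamini-Hochberg adjusted p under 0.05 over all 13054 genes tested. An exact two-sided permutation test of log2 CPM, 4 mice against 4, is given beside it, and the smallest p it allows is 0.0286. In bulk tissue, fewer cells of a type and less RNA per cell cannot be told apart. Hepatocyte markers were high in every library, with summed levels of 117600 to 138200 CPM (Sham-Ad lib), 133400 to 164900 CPM (Sham-WM) and 97310 to 137800 CPM (VSG). Of 6 pancreas markers 5 were at 0. Of 6 adipocyte markers Lep was at 0. Summed, the 6 were at 10.0 to 39.2 CPM (Sham-Ad lib), 2.56 to 11.3 CPM (Sham-WM) and 10.8 to 14.3 CPM (VSG). Plin4 was at 9.72 to 37.8 CPM in Sham-Ad lib livers. Of 2 adipocyte markers tested, 1 was lower in Sham-WM than in Sham-Ad lib livers, where 3.45% of all genes were lower.

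The 9 genes spanned a wide range of levels. Per kilobase of exon, the mean over the 12 libraries was 3428 CPM for Ahsg, 331 CPM for Fetub and 187 CPM for Lect2. Next came Angptl8 at 36.4, Angptl4 at 27.0 and Inhbe at 11.2 CPM per kilobase. Angptl6 (5.23), Gdf15 (2.39) and Fgf21 (1.61 CPM per kilobase) were the lowest. Ahsg, Fetub and Lect2 kept these first 3 places without overlap of their libraries in any group. Angptl8 and Angptl4 overlapped in Sham-Ad lib and VSG livers, whereas in Sham-WM livers the lowest Angptl8 level (57.9 CPM per kilobase) was above the highest Angptl4 level (27.9). Gdf15 and Fgf21 overlapped in all 3 groups.

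**Figure D1:**
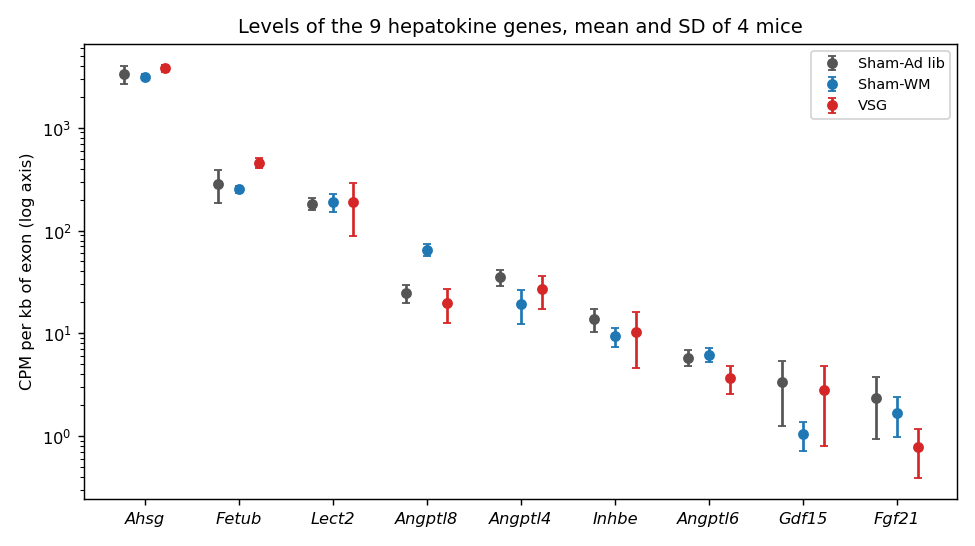
Levels of the 9 hepatokine genes as CPM per kilobase of exon on a log axis, with points for the mean of each group and bars for the SD of 4 mice. The means ran from 3812 for Ahsg in VSG livers to 0.787 for Fgf21 in VSG livers, and Angptl8 lay above Angptl4 in Sham-WM livers and below it in the other groups.

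In each comparison 0 to 3 of the 9 genes passed edgeR's test, given here beside the share of all genes tested. Between Sham-WM and Sham-Ad lib, 1 of 9 passed the test (Angptl8, higher), where 6.99% of all genes tested did (3.53% higher, 3.45% lower). Between VSG and Sham-WM, 3 of 9 passed (Fetub higher, Angptl6 and Angptl8 lower), against 26.9% of all genes (15.0% higher, 11.9% lower). Between VSG and Sham-Ad lib, edgeR called 0 of 9, against 0.751% of all genes. Of the 9, 3 had an unadjusted edgeR p under 0.05, where 24.1% of all genes did. DESeq2 called those 3 (Fgf21 and Angptl6 lower, Fetub higher), and it called 1202 of all 13054 genes tested. Over the 9 genes, the median log2 fold change was -0.33 between VSG and Sham-Ad lib (0.03 over all genes), -0.18 between Sham-WM and Sham-Ad lib (0.00) and 0.15 between VSG and Sham-WM (0.03). Each group enters more than 1 of the 3 comparisons, which therefore share libraries and are given side by side.

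**Figure D2:**
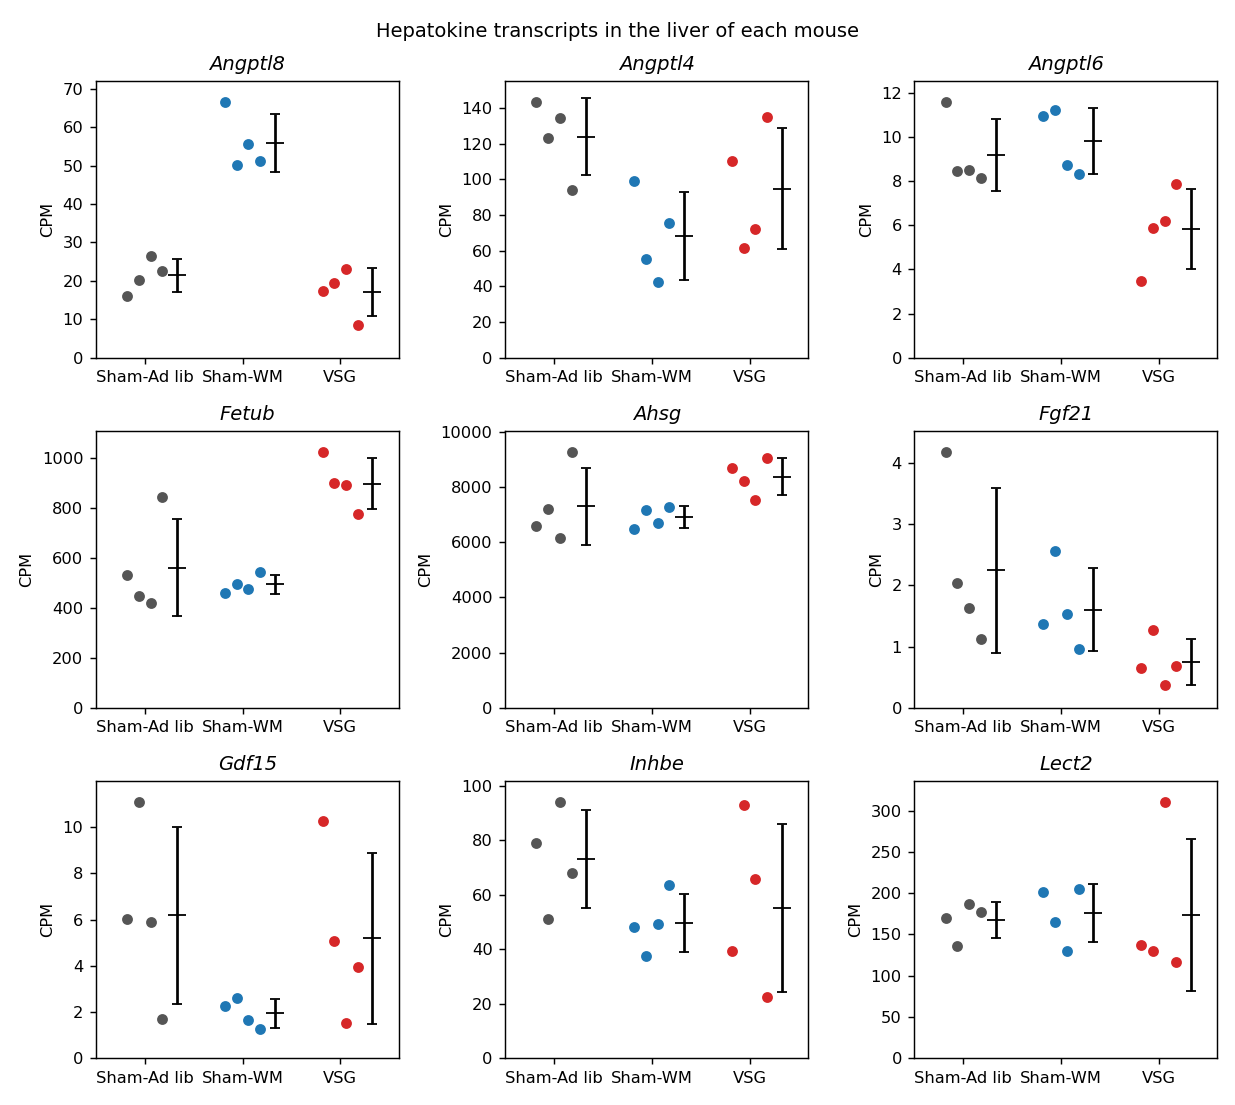
CPM of each hepatokine gene in the 12 livers, 1 panel per gene, with a point for each mouse and, beside the points, the mean and SD of the group. Angptl8 separated Sham-WM from both other groups, Angptl6 and Fetub separated VSG from Sham-WM, and single mice stood far from their group in Lect2 (VSG mouse 11F, 311 CPM) and Angptl6 (Sham-Ad lib mouse 3F, 11.6 CPM).

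Angptl8 was higher in Sham-WM livers than in both other groups. The gene lies on chromosome 9 (mm10 chr9:21835510-21837347, plus strand). Its level was 16.1, 20.3, 26.6 and 22.6 CPM in Sham-Ad lib mice 3F, 4F, 6F and 10F. In Sham-WM mice 2F, 9F, 15F and 16F it was 66.7, 50.1, 55.6 and 51.3 CPM. In VSG mice 1F, 8F, 11F and 18F it was 17.3, 19.6, 23.0 and 8.48 CPM. Every Sham-WM liver was above every other liver, and Sham-Ad lib and VSG livers overlapped. Between the sham groups 17.6% of all genes did not overlap, and Angptl8 was the only one of the 9 that did not. Between VSG and Sham-WM 26.2% of all genes did not overlap. Means were 21.4 ± 4.39, 56.0 ± 7.55 and 17.1 ± 6.21 CPM (SD, n = 4 each). Angptl8 was 2.61-fold higher in Sham-WM than in Sham-Ad lib livers (log2 fold change 1.39, SE 0.24, edgeR adjusted p = 0.00504, exact permutation p = 0.0286). It was lower in VSG than in Sham-WM livers (-1.71, SE 0.25, edgeR adjusted p = 0.000888, exact permutation p = 0.0286). Between VSG and Sham-Ad lib the difference was -0.33 (SE 0.24, edgeR adjusted p = 0.418). Both calls held in all 12 fits that left out 1 library.

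Angptl8 lies within the gene Dock6, which encodes a guanine nucleotide exchange factor and is read from the opposite strand, and no annotated exons of the 2 genes overlap. Dock6, named here after its values were seen, had the same pattern: it averaged 15.1 ± 1.35 CPM (Sham-Ad lib), 34.4 ± 1.85 CPM (Sham-WM) and 11.6 ± 1.39 CPM (VSG; SD, n = 4). Its log2 fold change was 1.18 for Sham-WM against Sham-Ad lib (SE 0.11, edgeR adjusted p = 5.4e-05) and -1.57 for VSG against Sham-WM (SE 0.11, edgeR adjusted p = 6.4e-06). The library kit kept strand, but whether the counting used it is not given in the sources used here. Without strand, reads from unspliced Dock6 transcripts and from Angptl8 cannot be told apart.

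Angptl4 values were lower in Sham-WM than in Sham-Ad lib livers, a difference that did not pass the test. The gene lies on chromosome 17 (mm10 chr17:33773750-33781830, minus strand). It was at 144, 123, 135 and 94.2 CPM in Sham-Ad lib mice 3F, 4F, 6F and 10F. In Sham-WM mice 2F, 9F, 15F and 16F it was at 98.8, 55.3, 42.3 and 75.5 CPM. In VSG mice 8F, 11F and 18F it was at 61.7, 72.4 and 135 CPM, and mouse 1F lay between the last 2 of these. Sham-WM values lay below those of Sham-Ad lib except for mouse 2F, and VSG values were spread over both ranges. Sham-WM against Sham-Ad lib gave -0.87 (SE 0.28, edgeR adjusted p = 0.0776, exact permutation p = 0.0571). Without mouse 2F the value was -1.10 and passed the test (edgeR adjusted p = 0.0426), and DESeq2 called it with all libraries (adjusted p = 0.024). VSG differed from Sham-Ad lib by -0.39 (edgeR adjusted p = 0.398) and from Sham-WM by 0.48 (edgeR adjusted p = 0.208).

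The ratio of Angptl8 to Angptl4 per kilobase within each liver, examined after the values were seen and so given with no test, was 0.732 ± 0.222 (Sham-Ad lib), 3.66 ± 1.23 (Sham-WM) and 0.875 ± 0.516 (VSG; SD, n = 4). The lowest Sham-WM ratio was 2.76 and the highest in any other liver was 1.30. On the log2 scale the difference was 2.32 between Sham-WM and Sham-Ad lib and -2.28 between VSG and Sham-WM. Each was larger than that of Angptl8 alone, as follows from Angptl4 values of the opposite sign (-0.87 and 0.48). Neither Angptl4 value passed edgeR's test.

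**Figure D3:**
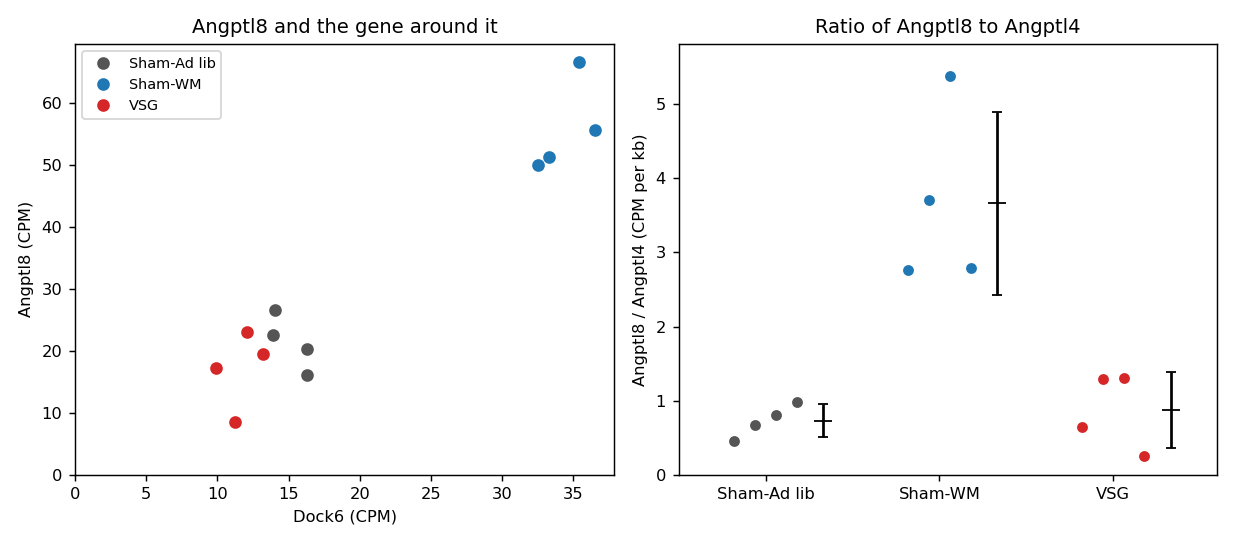
Left, Angptl8 against Dock6 in CPM, with 1 point per liver; right, the ratio of Angptl8 to Angptl4 (CPM per kilobase) in each liver with the mean and SD of 4 mice. The 4 Sham-WM livers stood apart from the other 8 in both panels, with Dock6 at 32.5 to 36.5 CPM and the ratio at 2.76 to 5.38.

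Angptl6 was lower in VSG than in Sham-WM livers. The gene encodes angiopoietin-related growth factor, a liver protein with reported effects on energy expenditure, and lies on chromosome 9 (mm10 chr9:20873808-20879727, minus strand). Levels in Sham-Ad lib mice 3F, 4F, 6F and 10F were 11.6, 8.48, 8.49 and 8.16 CPM. Levels in Sham-WM mice 2F, 9F, 15F and 16F were 11.0, 11.2, 8.72 and 8.33 CPM. Levels in VSG mice 1F, 8F, 11F and 18F were 3.47, 5.87, 6.18 and 7.85 CPM. All 4 VSG livers lay below all 8 others, and the VSG and Sham-WM groups did not overlap for 26.2% of all genes. VSG against Sham-WM gave -0.75 (SE 0.22, edgeR adjusted p = 0.0247, exact permutation p = 0.0286). This call was lost without Sham-WM mouse 2F (edgeR adjusted p = 0.0568), without Sham-WM mouse 9F (0.0599) or without VSG mouse 1F (0.0509). VSG against Sham-Ad lib gave -0.65 (SE 0.22, edgeR adjusted p = 0.106, exact permutation p = 0.0286), and Angptl6 was the only one of the 9 whose groups did not overlap there, as 9.21% of all genes did not. Without VSG mouse 18F that value was -0.83 and passed the test (edgeR adjusted p = 0.0409). Sham-WM and Sham-Ad lib differed by 0.09 (SE 0.21). Exons of Angptl6 overlap those of A230050P20Rik on the other strand, whose log2 fold change was -0.12 for VSG against Sham-WM (SE 0.20, edgeR adjusted p = 0.679), and without strand their reads cannot be told apart.

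**Figure D4:**
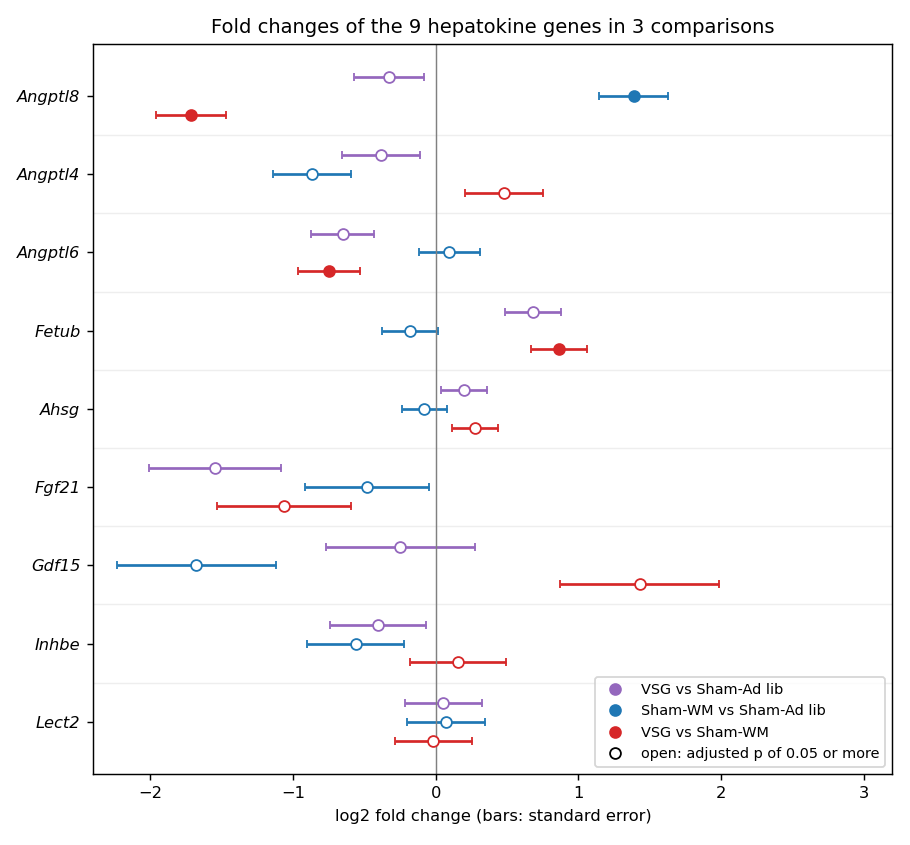
Log2 fold changes of the 9 hepatokine genes in 3 comparisons, with bars for the standard error from edgeR; filled points have an adjusted p under 0.05. The filled points are Angptl8 for Sham-WM against Sham-Ad lib (1.39) and Angptl8 (-1.71), Angptl6 (-0.75) and Fetub (0.86) for VSG against Sham-WM.

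Other genes around lipoprotein lipase were read next. Of 13 genes of this axis, none passed edgeR's test between Sham-WM and Sham-Ad lib or between VSG and Sham-Ad lib, and between VSG and Sham-WM 1 was higher and 2 were lower, where 26.9% of all genes were called. Lpl, lipoprotein lipase itself, which the adult liver makes little of, rose from 19.7 ± 2.17 CPM in Sham-WM to 53.8 ± 17.3 CPM in VSG livers (1.45, SE 0.38, edgeR adjusted p = 0.0159). Apoa5, which favours the action of the lipase, was lower in VSG than in Sham-WM livers (-0.82, SE 0.15, edgeR adjusted p = 0.0029), as was Sel1l, which helps the lipase to mature (-0.49, SE 0.13, edgeR adjusted p = 0.0135). Lpl is also made by macrophages, and all 7 Kupffer cell markers rose in the same comparison, with a summed level of 124 to 215 CPM in Sham-WM and 459 to 1298 CPM in VSG livers, none of them at 0. All 5 neutrophil markers tested rose too, with a summed level of 2.66 to 3.72 CPM in Sham-WM and 22.3 to 639 CPM in VSG livers. The part of these cells in the values given here was not tested.

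Fetub was higher in VSG than in Sham-WM livers. Fetuin-B is a protease inhibitor best known for keeping the coat of the egg open to sperm, and its plasma level is raised in fatty liver. The gene lies on chromosome 16 (mm10 chr16:22918334-22939778, plus strand). Sham-Ad lib mice 3F, 4F, 6F and 10F had 531, 448, 417 and 842 CPM. Sham-WM mice 2F, 9F, 15F and 16F had 458, 493, 476 and 545 CPM. VSG mice 1F, 8F, 11F and 18F had 1024, 897, 891 and 773 CPM. VSG livers lay above all Sham-WM livers, and these 2 groups did not overlap for 26.2% of all genes. Sham-Ad lib mouse 10F lay among the VSG livers, far from the other 3 of its group. VSG against Sham-WM gave a 1.82-fold difference (log2 fold change 0.86, SE 0.20, edgeR adjusted p = 0.00759, exact permutation p = 0.0286), and the call held in all 12 fits that left out 1 library. VSG against Sham-Ad lib gave 0.68 (SE 0.20, edgeR adjusted p = 0.0771, exact permutation p = 0.0571), and without VSG mouse 18F it was 0.74 and passed the test (edgeR adjusted p = 0.0481). Sham-WM against Sham-Ad lib gave -0.18 (SE 0.19), which turned to 0.07 without mouse 10F.

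Ahsg, the neighbour of Fetub on the same chromosome and strand (mm10 chr16:22891277-22899449), encodes an inhibitor of the insulin receptor that also binds calcium phosphate in plasma. In Sham-Ad lib mice 3F, 4F, 6F and 10F its level was 6589, 7200, 6148 and 9284 CPM. In Sham-WM mice 2F, 9F, 15F and 16F its level was 6482, 7171, 6700 and 7296 CPM. In VSG mice 1F, 8F, 11F and 18F its level was 8699, 8217, 7523 and 9062 CPM. The 4 VSG livers lay just above the 4 Sham-WM livers, and Sham-Ad lib mouse 10F was the highest of all. Ahsg was 1 of 4 of the 9 genes whose VSG and Sham-WM groups did not overlap (26.2% of all genes did not), but the difference was small (0.28, SE 0.16, edgeR adjusted p = 0.211, exact permutation p = 0.0286). VSG differed from Sham-Ad lib by 0.20 (edgeR adjusted p = 0.461), and Sham-WM differed from it by -0.08, a value that turned to 0.05 without mouse 10F. Over the 12 libraries, log2 CPM of Ahsg and Fetub had a Pearson r of 0.844, a description over points that share 3 group means.

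The other liver genes of the cystatin superfamily beside the fetuins on chromosome 16 were read beside them. Between VSG and Sham-WM, 2 of 3 were higher and none lower, where 15.0% of all genes were higher. These were Kng1 (0.71, SE 0.20, edgeR adjusted p = 0.0188) and Kng2 (0.63, SE 0.14, edgeR adjusted p = 0.00753), which encode kininogens. Hrg, histidine-rich glycoprotein, was at 0.42 (SE 0.15, edgeR adjusted p = 0.0501). None of the 3 was called in the comparisons with Sham-Ad lib. Kng1, at 1966 ± 86.5 CPM in Sham-WM and 3223 ± 507 CPM in VSG livers, was among the 3 genes whose pattern was most like that of Fetub.

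Fetuin-A is known as a plasma protein that falls in the acute phase response, and genes of that response differed in the same livers. Of 14 genes of the positive acute phase, 13 were higher in VSG than in Sham-WM livers and none lower, where 26.9% of all genes were called (15.0% higher), with a median log2 fold change of 2.26; Saa2 (7.81) and Orm2 (6.61) led them. Between Sham-WM and Sham-Ad lib 3 of the 14 were lower and none higher (median -0.99), where 3.45% of all genes were lower. Between VSG and Sham-Ad lib edgeR called 0 of the 14 (median 1.19). The mice of a group differed widely: Saa2 was at 92.6 CPM in VSG mouse 18F and at 4327 to 11203 CPM in the other 3 VSG livers, and at 5851 CPM in Sham-Ad lib mouse 10F. The part of this response in the values of Ahsg and Fetub was not tested. Of 9 genes of the negative acute phase other than Ahsg, 1 was lower in VSG than in Sham-WM livers and none was higher. The share of all genes that were lower there was 11.9%, and of the 9 values 4 were above 0 and 5 below. The gene called was Alb, which encodes albumin (-0.73, SE 0.22, edgeR adjusted p = 0.0294). All 4 VSG livers lay below all 4 Sham-WM livers in Alb and above them in Ahsg and Fetub. In Alb the margin was narrow, with 91193 CPM in VSG mouse 18F and 91380 CPM in Sham-WM mouse 2F. Of all genes, 26.2% did not overlap between these 2 groups.

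Fgf21 was low in all groups, with 5 to 75 counts per library. The gene lies on chromosome 7 (mm10 chr7:45613886-45615490, minus strand). Sham-Ad lib mice 3F, 4F, 6F and 10F had 4.19, 2.04, 1.62 and 1.13 CPM. Sham-WM mice 2F, 9F, 15F and 16F had 1.38, 2.56, 1.53 and 0.957 CPM. VSG mice 1F, 8F, 11F and 18F had 0.657, 1.3, 0.377 and 0.683 CPM. VSG values were the lowest, but mouse 8F overlapped both sham groups. VSG against Sham-Ad lib gave -1.55 (SE 0.47, edgeR adjusted p = 0.0846, exact permutation p = 0.0571), and VSG against Sham-WM gave -1.06 (SE 0.47, edgeR adjusted p = 0.107, exact permutation p = 0.0571). DESeq2 called the first (adjusted p = 0.0222) and not the second (adjusted p = 0.0751). Sham-WM against Sham-Ad lib gave -0.48 (SE 0.43), which turned to 0.01 without mouse 3F.

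Gdf15 was low and varied between mice, with 20 to 207 counts per library. The gene lies on chromosome 8 (mm10 chr8:70629393-70632456, minus strand). Sham-Ad lib mice 3F, 4F, 6F and 10F had 6.03, 11.1, 5.90 and 1.69 CPM. Sham-WM mice 2F, 9F, 15F and 16F had 2.24, 2.61, 1.63 and 1.24 CPM. VSG mice 1F, 8F, 11F and 18F had 10.3, 5.05, 1.51 and 3.92 CPM. The Sham-WM livers lay in a narrow low range that 1 mouse of each other group shared. Sham-WM against Sham-Ad lib gave -1.68 (SE 0.55, edgeR adjusted p = 0.0891, exact permutation p = 0.0857). Without Sham-Ad lib mouse 10F it was -1.99 and passed the test (edgeR adjusted p = 0.0454), as it did without VSG mouse 11F (-1.69, edgeR adjusted p = 0.0451). VSG against Sham-WM gave 1.43 (SE 0.56, edgeR adjusted p = 0.0721, exact permutation p = 0.114). DESeq2 called both differences (adjusted p = 0.0204 for Sham-WM against Sham-Ad lib and 0.0288 for VSG against Sham-WM), and of the 10 other settings, DESeq2 included, 4 called the first and 3 the second. The second passed edgeR's test without Sham-Ad lib mouse 10F (1.43, edgeR adjusted p = 0.0444) and without VSG mouse 11F (1.73, edgeR adjusted p = 0.029). VSG against Sham-Ad lib gave -0.25 (SE 0.52), which turned to 0.19 without mouse 4F and to 0.04 without mouse 11F.

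Of 7 receptor genes for these 2 hormones, 5 had enough counts to be tested, and Gfral and Ret, the receptor of GDF15 and its signalling partner, were at 0 in all 12 livers. Fgfr1 fell in Sham-WM livers, at 3.70 ± 0.58 CPM against 9.25 ± 5.09 CPM in Sham-Ad lib (-1.32, SE 0.34, edgeR adjusted p = 0.0331). It was higher in VSG livers, at 10.3 ± 2.25 CPM, than in Sham-WM livers (1.48, SE 0.34, edgeR adjusted p = 0.00781). Fgfr4, the main FGF receptor of hepatocytes, was lower in VSG than in Sham-WM livers (-0.39, SE 0.13, edgeR adjusted p = 0.0397). Klb, which encodes beta-klotho, was at 35.6 ± 10.6 CPM (Sham-Ad lib), 29.0 ± 7.09 CPM (Sham-WM) and 20.5 ± 5.63 CPM (VSG). It was not called in any comparison (VSG against Sham-Ad lib -0.79, SE 0.25, edgeR adjusted p = 0.0900).

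Promoter sequences of 8 of the 9 genes were found in RefSeq (GRCm38.p6), in 10 windows from 250 bases before to 50 after a start site; Angptl4 had none. The windows were searched on both strands for TGATGCA, the core that ATF4 binds in genes of the integrated stress response, for the E-box CACGTG, for the nuclear receptor element AGGTCA and for the TATA box TATAAA. The ATF4 core was present in windows of 4 of the 8 genes, Fgf21, Gdf15, Angptl8 and Inhbe, and 3.15% of all 32851 windows held it. The E-box was in windows of Fgf21 and Gdf15 (7.15% of all windows), the nuclear receptor element in that of Gdf15 (16.3%) and the TATA box in those of Fgf21 and Fetub (13.6%). No 2 matches overlapped. The bases upstream of the start are shown for 3 genes that share the ATF4 core in unannotated sequence and for the 2 other genes that passed a test; capitals mark a match to any of the 4 motifs on either strand. The match in Angptl8 begins 130 bases before the start, in Fgf21 138 and in Gdf15 238 bases before it, and in Fgf21 an E-box (50 bases before) and a TATA box (28 bases before) follow. The coordinates are chr9:21835260-21835509 (plus strand) for Angptl8, chr7:45615491-45615740 (minus strand) for Fgf21 and chr8:70632457-70632706 (minus strand) for Gdf15. They are chr9:20879728-20879960 (minus strand) for Angptl6 and chr16:22918132-22918333 (plus strand) for Fetub, whose printed bases are without a match.
Angptl8: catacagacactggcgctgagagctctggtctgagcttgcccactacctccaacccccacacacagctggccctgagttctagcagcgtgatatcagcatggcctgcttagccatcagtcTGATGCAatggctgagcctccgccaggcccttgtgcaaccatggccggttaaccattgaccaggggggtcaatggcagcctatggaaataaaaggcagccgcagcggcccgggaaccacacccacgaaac
Fgf21: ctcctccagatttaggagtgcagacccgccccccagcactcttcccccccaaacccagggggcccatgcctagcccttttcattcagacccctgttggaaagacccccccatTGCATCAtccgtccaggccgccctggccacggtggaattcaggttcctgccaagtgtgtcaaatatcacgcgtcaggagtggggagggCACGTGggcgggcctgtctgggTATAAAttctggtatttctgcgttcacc
Gdf15: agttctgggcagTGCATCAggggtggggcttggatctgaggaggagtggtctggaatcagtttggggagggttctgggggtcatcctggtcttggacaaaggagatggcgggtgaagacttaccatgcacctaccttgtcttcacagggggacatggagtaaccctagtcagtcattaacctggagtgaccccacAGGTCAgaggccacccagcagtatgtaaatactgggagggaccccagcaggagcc
Angptl6: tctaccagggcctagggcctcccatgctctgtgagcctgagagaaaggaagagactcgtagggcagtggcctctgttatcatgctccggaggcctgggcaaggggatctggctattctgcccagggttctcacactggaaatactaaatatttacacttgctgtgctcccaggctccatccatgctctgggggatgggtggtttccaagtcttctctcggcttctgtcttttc
Fetub: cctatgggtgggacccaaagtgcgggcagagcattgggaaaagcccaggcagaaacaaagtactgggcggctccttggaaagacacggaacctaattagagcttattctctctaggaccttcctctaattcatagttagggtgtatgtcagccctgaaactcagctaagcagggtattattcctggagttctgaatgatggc
A match is a run of letters and not a measured site of binding.

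The genes that share the ATF4 core differed in direction: Angptl8 rose in Sham-WM livers, while Fgf21 (-0.48), Gdf15 (-1.68) and Inhbe (-0.56) had values below 0 there that did not pass the test. Among 15 genes of the integrated stress response, 14 were tested. Atf4 itself was higher in Sham-WM than in Sham-Ad lib livers (0.81, SE 0.16, edgeR adjusted p = 0.00829) and Trib3, a pseudokinase induced in this response, was lower (-1.93, SE 0.30, edgeR adjusted p = 0.00259). Between VSG and Sham-WM 4 were higher and none lower: Asns, asparagine synthetase (3.86), Trib3 (1.89), Chac1 (1.84) and Nupr1 (1.60). Of all genes tested, 26.9% were called in that comparison, 15.0% as higher. In Sham-WM livers Asns had 5 to 26 and Nupr1 11 to 26 counts per library. Asns was at 15.3 CPM in Sham-Ad lib mouse 10F, within the range of VSG livers (2.16 to 15.8 CPM). Atf4 was at -0.42 for VSG against Sham-WM (SE 0.15, edgeR adjusted p = 0.0572).

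Genes of the pathways known to regulate Fgf21, Angptl4 and Angptl8 were also read. PPAR alpha is the fasting regulator of Fgf21 and Angptl4. Of 15 genes of its pathway, Ppara itself among them, 4 were lower and none higher in VSG than in Sham-WM livers. These were Cyp4a14 (-2.91), Pdk4 (-2.30), Acot1 (-1.49) and Ehhadh (-0.92). Of all genes tested, 26.9% were called in that comparison, 11.9% as lower. Between Sham-WM and Sham-Ad lib, Pdk4 was higher (1.65) and Cpt1a lower (-0.75). Ppara was not called in any comparison, with -0.39 for VSG against Sham-WM (SE 0.24) and -0.96 for VSG against Sham-Ad lib (SE 0.24, edgeR adjusted p = 0.0635). Of 13 genes of the response to carbohydrate and insulin, which also raises Angptl8, 6 were lower and none higher in VSG than in Sham-WM livers, among them Pnpla3 (-4.78), G6pc (-3.18), Thrsp (-1.93) and Pklr (-1.66). Here too the share of all genes that were lower was 11.9%. Between Sham-WM and Sham-Ad lib, Pnpla3 (4.37) and G6pc (2.13) were higher and Txnip was lower (-1.52). Pnpla3 was near 0 outside Sham-WM, with 1 to 15 counts per library in Sham-Ad lib, 3 to 8 in VSG and 93 to 291 in Sham-WM livers. Mlxipl, the gene of the carbohydrate response factor ChREBP, was at 0.40 (SE 0.18) and was not called. Angptl8, Pnpla3 and G6pc were each higher in Sham-WM livers than in both other groups. G6pc, of glucose output, is known as a gene that insulin represses. The part of insulin or carbohydrate in these values was not tested.

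Inhbe did not pass the test, whereas other activin genes did. It lies on chromosome 10 (mm10 chr10:127348857-127354411, minus strand). Sham-Ad lib mice 3F, 4F, 6F and 10F had 79.1, 51.1, 94.2 and 68.1 CPM. Sham-WM mice 2F, 9F, 15F and 16F had 48.3, 37.5, 49.1 and 63.4 CPM. VSG mice 1F, 8F, 11F and 18F had 39.3, 92.9, 65.9 and 22.6 CPM. The VSG livers overlapped both sham groups, with mouse 18F below and mouse 6F of Sham-Ad lib above all other livers. Sham-WM against Sham-Ad lib gave -0.56 (SE 0.34, edgeR adjusted p = 0.371, exact permutation p = 0.0571), and VSG against Sham-WM gave 0.15 (SE 0.34), which turned to -0.25 without mouse 8F.

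Of 12 other genes of the activin system 9 were tested. Between Sham-WM and Sham-Ad lib 3 were higher and none lower, where 3.53% of all genes were higher. Inhba, the subunit of activin A, rose from 3.09 ± 0.91 to 8.55 ± 1.30 CPM (1.47, SE 0.23, edgeR adjusted p = 0.00309). Inhbc, the close relative of Inhbe made by hepatocytes, rose from 50.5 to 67.0 CPM in the 4 Sham-Ad lib livers to 71.5 to 134 CPM in the 4 Sham-WM livers (0.87, SE 0.18, edgeR adjusted p = 0.0115), and Smad7, an inhibitor of the signal, was also higher (0.79, edgeR adjusted p = 0.0465). In VSG livers both subunits were below Sham-WM, Inhba at 2.94 ± 0.68 CPM (-1.53, SE 0.23, edgeR adjusted p = 0.00122) and Inhbc at 55.4 ± 5.83 CPM (-0.94, SE 0.18, edgeR adjusted p = 0.0031). Of the receptors, Acvr2a was lower (-0.73, SE 0.18, edgeR adjusted p = 0.0110) and Acvr2b higher (1.29, SE 0.30, edgeR adjusted p = 0.00902) in VSG than in Sham-WM livers. Inhbb and the activin inhibitor Fst were low, at 0.690 to 7.68 and 0.811 to 4.72 CPM, and neither was called.

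Lect2 means were close in the 3 groups. The gene lies on chromosome 13 (mm10 chr13:56542464-56548502, minus strand). Sham-Ad lib mice 3F, 4F, 6F and 10F had 169, 136, 187 and 177 CPM. Sham-WM mice 2F, 9F, 15F and 16F had 202, 165, 130.4 and 205 CPM. VSG mice 1F, 8F, 11F and 18F had 137, 130.3, 311 and 116 CPM. Mouse 11F stood above all other livers, and the remaining 3 VSG livers lay below 6 of the 8 sham livers. The log2 fold change was 0.05 between VSG and Sham-Ad lib, 0.07 between Sham-WM and Sham-Ad lib and -0.02 between VSG and Sham-WM (SE 0.27 each). Without mouse 11F the first was -0.40 and the last -0.45, and neither passed the test. Of 5 receptor genes tested for LECT2 and the fetuins, 1 was lower in VSG than in Sham-WM livers, Tie1 (-0.56, SE 0.17, edgeR adjusted p = 0.0277), and none was higher. Of all genes, 11.9% were lower in that comparison. Met was at -0.12 there (SE 0.15).

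**Figure D5:**
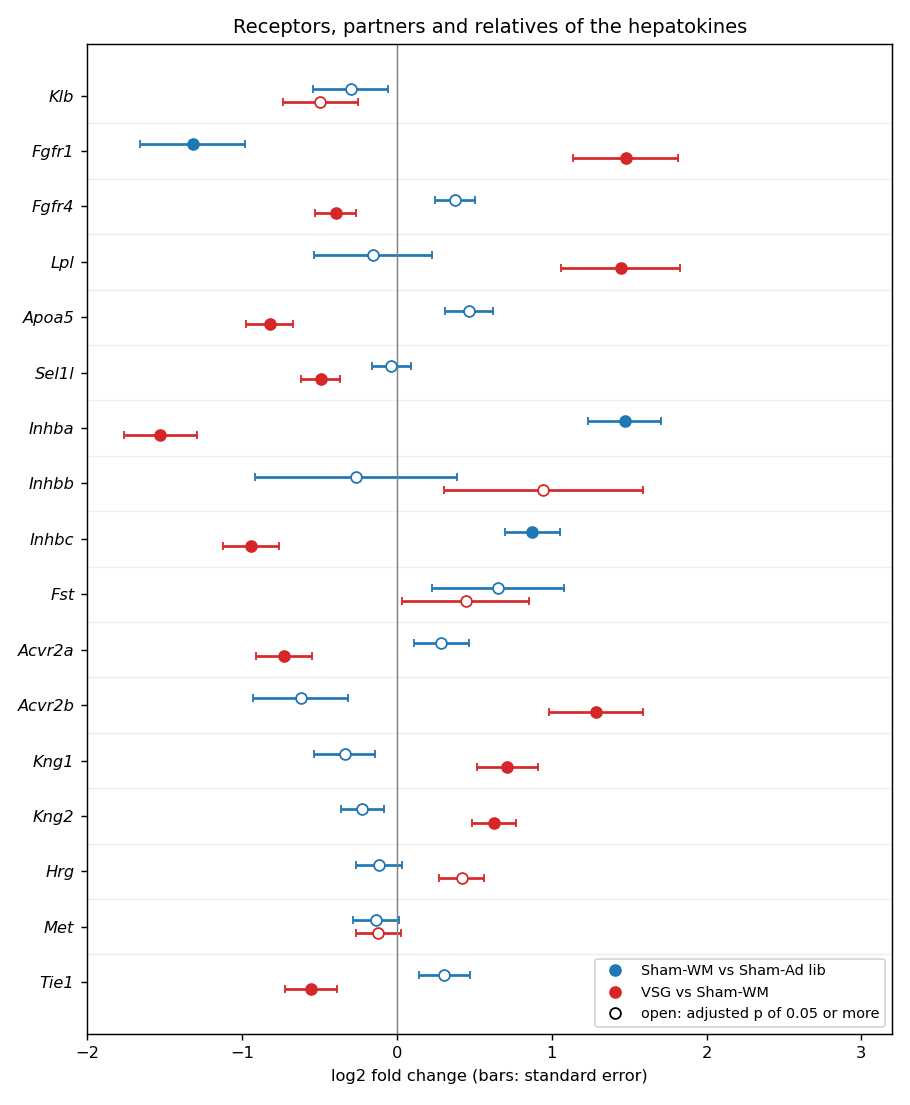
Log2 fold changes of receptors, partners and relatives of the hepatokines for Sham-WM against Sham-Ad lib and for VSG against Sham-WM, with bars for the standard error; filled points have an adjusted p under 0.05. Fgfr1 (-1.32, then 1.48), Inhba (1.47, then -1.53) and Inhbc (0.87, then -0.94) were called in both comparisons.

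Among 30 other factors secreted by the liver, 27 were tested. Between Sham-WM and Sham-Ad lib 2 were higher and none lower, where 3.53% of all genes were higher. These were Manf, a factor released under stress of the endoplasmic reticulum (1.04, SE 0.19, edgeR adjusted p = 0.00654), and Fgf1 (0.67, SE 0.16, edgeR adjusted p = 0.0233). Like Angptl8, both were lower in VSG than in Sham-WM livers (-0.81 and -0.83). In that comparison 3 of the 27 were higher and 6 lower, where 15.0% of all genes were higher and 11.9% lower, with the acute phase protein Lcn2 (6.35), hepassocin, encoded by Fgl1 (2.34), Itih3 (1.23) and the iron-sensing signal Bmp6 (-1.01) furthest from 0. Fgl1, a hepatokine linked to insulin resistance, was at 363 ± 91.6 CPM in Sham-WM and 1836 ± 750.3 CPM in VSG livers. None of the 27 was called by edgeR between VSG and Sham-Ad lib.

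The genes with the pattern most like each hepatokine were sought by Pearson r of log2 CPM over the 12 libraries, among 10824 genes; the libraries share the 3 group means, so these values are a description. Angptl8 was most like Vac14 (0.956), Mal2 (0.940) and Nat8f5 (0.929). Angptl6 was most like Ces1e (0.945), Vipr1 (0.936) and Zyg11a (0.934), and among those most like Angptl4 were Herpud1 (0.893) and Prob1 (0.867). For Fetub they were Ppig (0.907), Kng1 (0.907) and Eef1a1 (0.906), and for Ahsg they were Serpind1 (0.857), Dtnb (0.844) and Fetub itself. Gdf15 was most like Exoc4 (0.942), Myo9b (0.916) and Sqstm1 (0.914), Fgf21 like Tcf20 (0.918), Rdh11 (0.904) and Mgam (0.886). Lect2 was most like Brcc3 (0.954), Gstz1 (0.925) and Ccnh (0.905), and Inhbe like Zfp174 (0.892), Gm29216 (0.867) and Yme1l1 (0.83). Among the 9 genes themselves, the 3 lowest r were -0.77 (Angptl6 and Fetub), -0.67 (Fgf21 and Fetub) and -0.61 (Angptl4 and Angptl8), and the 3 highest 0.84 (Ahsg and Fetub), 0.69 (Fgf21 and Angptl6) and 0.59 (Gdf15 and Angptl4).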

How the data were processed

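RNA was taken from the livers of 12 mice. The authors prepared poly(A) libraries with a kit that keeps strand, aligned reads to mm10 with TopHat2 2.1.1, counted those on genes with featureCounts and deposited whole-number counts without normalization; the annotation release and the use of strand are not given in the sources used here. Counts were tested with edgeR 4.0.16 in R 4.3.3: filterByExpr (minimum count 10, minimum total 15), TMM scaling, 1 quasi-likelihood fit of all 12 libraries with 3 groups, and Benjamini-Hochberg adjustment over 13054 genes. The study used DESeq2 with RUVSeq factors; DESeq2 (version 1.42.0), 2 RUVr or RUVs factors, other scalings and filters, a fit of the 2 groups compared, the grouping by the other label field and fits without 1 library were run as alternatives. The ratio of Angptl8 to Angptl4 was chosen after the values were seen. P-values set a difference between groups against the spread between the mice. Exon lengths and positions came from GENCODE M21 (45143 of 46078 genes matched) and promoters from RefSeq. The 9 genes and all gene lists were chosen with earlier results of these data known. Besides the 9 genes, the text names fixed partner genes, at most 4 genes called per list and comparison by size of change, and the 3 genes of highest Pearson r with each hepatokine. Results for some genes that this rule names are not reported here.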

Additional observations from a re-analysis of the deposited data

Results flagged for a closer look

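In 27 groups of 4 mice, 1 for each of the 9 genes in each treatment, 2 values stood apart from the other 3 of their group by more than the critical share of the range in Dixon's test; chance alone does so in about 1 in 20 groups. Angptl6 was at 11.6 CPM in Sham-Ad lib mouse 3F, and its distance to the nearest of the others was 0.902 of the range of the group. Lect2 was at 311 CPM in VSG mouse 11F, with a distance of 0.892 of the range.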

How the results depend on the processing

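The results for the 9 genes were recomputed under 10 other settings and 12 fits that each left out 1 library, which gave 591 values. Of these, 524 kept their direction and their side of the threshold, 24 kept their direction and newly passed the test, 8 kept it and no longer passed, and 35 changed direction. For Angptl8 against Sham-Ad lib and against VSG, every setting except the other grouping of the libraries kept the call of Sham-WM. The call of Fetub for VSG against Sham-WM was lost with that grouping and with 2 RUVs factors (factors of unwanted variation), and that of Angptl6 with the same settings and without 1 of 3 libraries. The cause of these changes was not tested.

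With libraries grouped by the other label field, edgeR called 0 genes and 0 of the 9 in each comparison. The directions of Fgf21 (0.77), Gdf15 (1.88), Angptl4 (0.78), Angptl6 (0.11) and Lect2 (-0.40) changed for VSG against Sham-Ad lib. Those of Fgf21 (0.89), Gdf15 (2.02), Angptl4 (0.40), Angptl8 (-0.39), Lect2 (-0.42) and Inhbe (0.16) changed for Sham-WM against Sham-Ad lib, and those of Gdf15 (-0.14), Lect2 (0.017) and Inhbe (-0.54) for VSG against Sham-WM.

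For VSG against Sham-Ad lib, where edgeR called 98 genes and 0 of the 9, DESeq2 called 1202 genes, no filter on low counts 628, 2 RUVr factors 3029 and 2 RUVs factors 8, while library totals alone, at least 10 counts in every library and a fit of only the 2 groups each called 0. DESeq2 and RUVr factors each called 3 of the 9. For Sham-WM against Sham-Ad lib, where 912 genes and 1 of the 9 were called, DESeq2 called 1445 genes and 3 of the 9, a fit of the 2 groups 1399 and 3, RUVs factors 1724 and 3, and RUVr factors 2162 and 2; no filter on low counts called 2 of the 9. For VSG against Sham-WM, where 3509 genes and 3 of the 9 were called, RUVr factors called 5496 genes and RUVs factors 524 genes and 1 of the 9. The value of Lect2 changed sign for VSG against Sham-Ad lib with library totals alone (-0.013), with no filter (-0.0022), with RUVr factors (-0.055) and with RUVs factors (-0.16), and for VSG against Sham-WM with upper quartile factors (0.020). Fgf21 had under 10 counts in 1 library and gave no value where every library had to reach that number.

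Without 1 library, between 0 and 1089 genes and 0 to 2 of the 9 were called for VSG against Sham-Ad lib, 424 to 1311 genes and 1 to 2 of the 9 for Sham-WM against Sham-Ad lib, and 2196 to 3868 genes for VSG against Sham-WM. Values whose direction changed without 1 library ranged, for VSG against Sham-Ad lib, from -0.81 to 0.19 for Gdf15 and from -0.40 to 0.20 for Lect2. For Sham-WM against Sham-Ad lib they ranged from -0.80 to 0.0073 for Fgf21, from -0.30 to 0.074 for Fetub, from -0.15 to 0.047 for Ahsg and from -0.017 to 0.19 for Lect2. For VSG against Sham-WM they ranged from -0.45 to 0.13 for Lect2 and from -0.25 to 0.41 for Inhbe. No paired analysis was possible because the groups share no animal numbers. Fgf21 had 5 to 75 and Gdf15 20 to 207 counts per library, and the part of depth in their results was not tested.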
